A study of Mus musculus with 7 samples.

Results

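Synapsins, synaptogyrins, synaptophysins and SV2 proteins coat or span the membrane of synaptic vesicles, and the 10 genes described here (*Syn1*, *Syn2*, *Syn3*, *Syngr1*, *Syngr3*, *Syp*, *Synpr*, *Sv2a*, *Sv2b* and *Sv2c*) were matched by gene ID to their symbols among the 55401 genes of the count files. All 10 had enough counts to be tested, among 17621 genes tested in all. RNA bound to tagged ribosomes of Purkinje cells was sequenced from 4 nm3888-/- mice and 3 wild-type mice, with 1 mouse per library. Mice of both groups carried 1 floxed Rpl22 allele (Rpl22fl/+) and PCP2-Cre, and were 3 weeks old by the labels. The nm3888 allele, homozygous in the first group, is a spontaneous mutation of *Rreb1* that arose on the NOD background and was moved to C57BL/6J. In this RiboTag design, Cre driven by the *Pcp2* promoter adds an HA tag to the ribosomal protein RPL22 in Purkinje cells, and an HA antibody recovers their ribosomes from whole cerebellum. The library names form 2 series. Mutants 1 and 2 and wild types 1 and 2 (all female) make up the first, and mutants 3 and 4 (male) and wild type 3 (female) the second. Sex and genotype cannot be told apart within the second series.

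Synaptic vesicles store transmitter at the axon terminal, which in a Purkinje cell is a GABAergic terminal on neurons of the cerebellar nuclei. Synapsins are phosphoproteins on the cytoplasmic face that tether vesicles in a reserve pool until kinases release them. Synaptogyrins, synaptophysin and synaptoporin are related membrane proteins that cross the vesicle membrane several times, and synaptophysin binds the SNARE protein synaptobrevin. SV2 proteins are glycoproteins built like transporters, bind synaptotagmin, and are the entry point of some botulinum toxins, and SV2A is the binding site of the drug levetiracetam.

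In the libraries labelled nm3888-/-, 5 of the 10 genes (*Syngr3*, *Sv2c*, *Sv2a*, *Syp* and *Syngr1*) were lower than in wild type by edgeR (quasi-likelihood, p adjusted by Benjamini-Hochberg over all tested genes, threshold 0.05). By the same rule 5.95% of all genes tested were lower and 8.54% changed in either direction. None of the 10 was higher by this test, where 2.58% of all genes were. With an unadjusted p under 0.05 there was 1 higher gene, and DESeq2 called none. The share of all genes at an unadjusted p under 0.05 was not counted, so such counts, here and below, have no background beside them. *Syngr3* stood far from the rest, at 10.01-fold lower, and the other called genes were 1.39-fold to 1.66-fold lower. Over the 10 genes the median log2 fold change was −0.39, and over all genes tested 0.03. In 6 of the 10 genes every nm3888-/- library lay below every wild-type library, as in 8.92% of all genes, and in none did every one lie above, as in 5.16% of all genes. Without wild type 2 or wild type 3 the test called 3 of the 10 genes lower, and without mutant 2 it called 2.

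**Figure D1:**
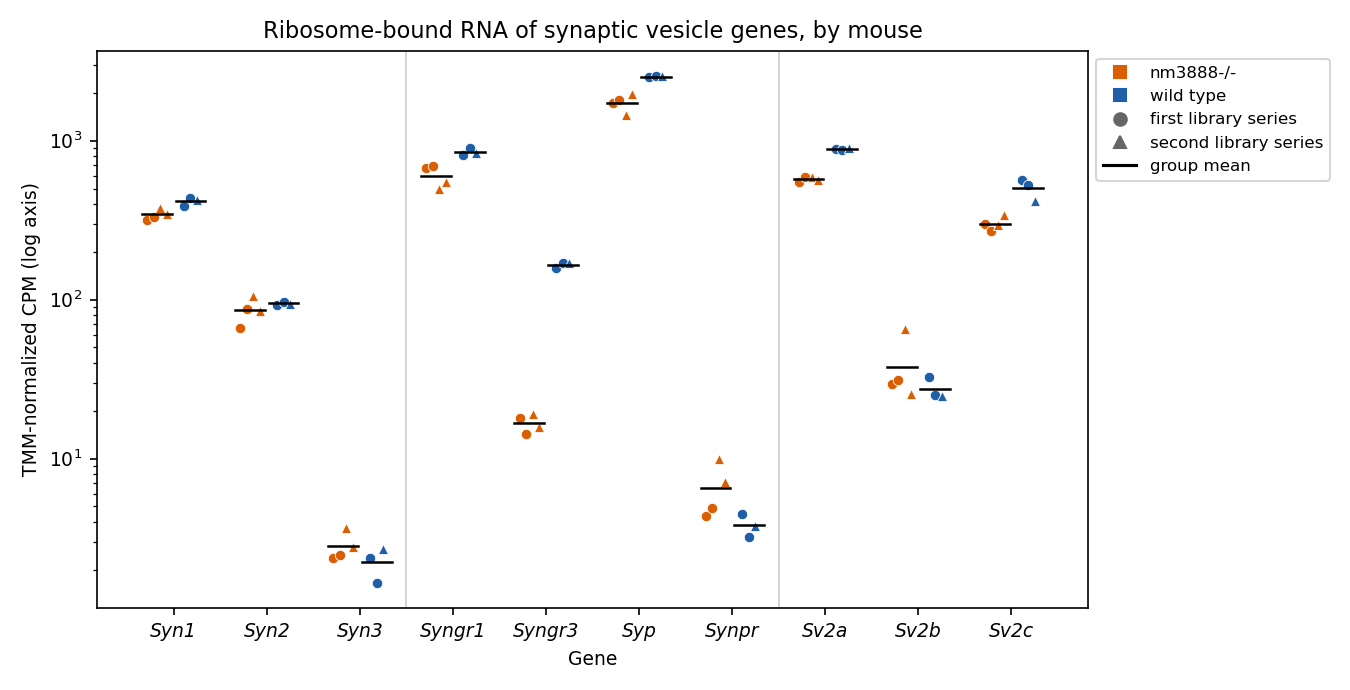
CPM (log axis) of the 10 genes in each mouse, nm3888-/- in orange left of wild type in blue, where circles are mice of the first series, triangles those of the second, and bars the group means. *Syngr3* has 14.3 to 19.0 CPM in the mutant mice, against 158 to 170 CPM in the wild-type mice, and the groups of *Syn2*, *Syn3*, *Synpr* and *Sv2b* overlap.

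Levels are given as CPM, the counts scaled to the size of each library. Total counts were 18023017 to 56809597 in nm3888-/- and 25843485 to 107937386 in wild-type libraries. The 10 genes together took 0.357 to 0.395% of the counts in nm3888-/- libraries, against 0.516 to 0.538% in wild-type libraries. *Rreb1* had 20.2, 19.1, 23.7 and 10.8 CPM in mutants 1 to 4, against 17.7, 17.4 and 14.4 CPM in wild types 1 to 3 (log2 fold change 0.20, SE 0.23, adjusted p = 0.64 from edgeR). *Rreb1* was therefore not lower in the libraries labelled nm3888-/-, although the allele is described as one that removes the main *Rreb1* transcript of the brain. The count sums all *Rreb1* transcripts, where the qPCR primers of the paper were for the lost transcript. The paper found other *Rreb1* transcripts at comparable levels in both genotypes, but no signal in mutant brain with a probe for all of them. The count alone does not bear out the mutant labels, and the reason was not tested. The names nm3888-/- and wild type stand throughout for the libraries so labelled. Markers of Purkinje cells fit the label: 12 of them summed to 34220 to 51436 CPM in nm3888-/- and 38358 to 46021 CPM in wild-type libraries, and none of the 12 passed the test (*Pcp2* log2 fold change 0.27, *Calb1* 0.10). Summed markers of granule cells (12 genes) were 751 to 1422 CPM in nm3888-/- and 550 to 677 CPM in wild-type libraries. Those of Bergmann glia and astrocytes (12 genes) were 9799 to 14344 CPM in nm3888-/- and 8247 to 13503 CPM in wild-type libraries, most of it *Aldoc*, which Purkinje cells also express. In that list 10 of 12 genes had a positive log2 fold change (median 0.59), *Gfap* rose (1.04) and *Hopx* and *Sept4* fell (−0.82 and −0.41). Oligodendrocyte markers (10 genes) summed to 682 to 1224 CPM in nm3888-/- and 502 to 731 CPM in wild-type libraries, with 9 of 10 positive (median 0.54), and *Cnp* (0.67) and *Cldn11* (0.64) rose. Unipolar brush cell markers (4 genes) summed to 27.7 to 81.1 CPM in nm3888-/- and 20.35 to 31.7 CPM in wild-type libraries, and *Calb2* rose (0.79). In the same order, sums were 7.84 to 20.1 and 7.24 to 16.2 CPM for microglia, and 22.8 to 38.3 and 19.3 to 31.3 CPM for endothelial cells. They were 142 to 216 and 159 to 308 CPM for molecular layer interneurons, and 22.2 to 41.7 and 25.8 to 28.3 CPM for Golgi cells. The part of RNA from these other cells in the results was not tested. No marker of these lists was at 0 in all libraries. In bulk RNA such as this, fewer cells of a type and less RNA per cell cannot be told apart.

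Levels were compared between genes as CPM per kilobase of exon. In nm3888-/- Purkinje cells *Syp* was the highest of the 10, at 334 ± 40.5 CPM per kb (SD, n = 4). *Syngr1* (125 ± 19.5), *Sv2a* (124 ± 4.08) and *Syn1* (104 ± 7.27) followed, with the range of *Syngr1* overlapping those of the other two. *Syngr3* lay at 8.11 ± 1.05 CPM per kb, below *Sv2c* (30.9 ± 3.03) and *Syn2* (12.2 ± 2.24). The range of *Sv2b* (4.53 ± 2.23) overlapped that of *Syngr3*. In wild-type Purkinje cells *Syp* was again first, at 486 ± 5.12 CPM per kb (SD, n = 3). It was followed by *Sv2a* (192 ± 2.08), *Syngr1* (177 ± 9.28), *Syn1* (127 ± 7.50), *Syngr3* (80.2 ± 3.30) and *Sv2c* (51.8 ± 7.84), all in CPM per kb. Far below them came *Syn2* (13.5 ± 0.263), *Sv2b* (3.27 ± 0.519), *Synpr* (0.404 ± 0.0669) and *Syn3* (0.183 ± 0.0433) on the same scale. The wild-type ranges of neighbours in this order did not overlap. The 6 genes at 50 CPM per kb or more in wild type were those whose nm3888-/- libraries all lay below the wild-type ones, and none of the 4 genes below that level passed the test. Of all 1199 tested genes at that level, a limit chosen after the values were seen, 11.5% were lower in the mutant.

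The 250 bases before each start of the 10 genes were searched on both strands for 6 motifs. RefSeq promoters (build GRCm38.p6) were found for 8 of the 10 genes, all but *Syn3* and *Syngr3*, as 13 windows, some genes having several starts. The motifs were CCCCAAAC, a core of the RREB1 motif known from human RREB1, CAGATG, an E-box of the kind NEUROD1 binds, TGANTCA for AP-1, GGGCGG for the GC box, TGACGTCA for the cyclic AMP response element and TTCAGCACC, part of the site of the repressor REST. Promoters of 3 genes that were lower and of *Syn1*, which did not pass the test but holds the most matches, are shown. Each is written 5′ to 3′ on the gene's strand up to the first base of the counted gene, with motif matches in capitals.
*Syn1* (chrX:20921005-20921168, minus strand): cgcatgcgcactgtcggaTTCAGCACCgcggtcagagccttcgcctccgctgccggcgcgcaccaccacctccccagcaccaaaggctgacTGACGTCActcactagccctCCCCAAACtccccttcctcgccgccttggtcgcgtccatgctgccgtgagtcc
*Syngr1* (chr15:80091084-80091333, plus strand): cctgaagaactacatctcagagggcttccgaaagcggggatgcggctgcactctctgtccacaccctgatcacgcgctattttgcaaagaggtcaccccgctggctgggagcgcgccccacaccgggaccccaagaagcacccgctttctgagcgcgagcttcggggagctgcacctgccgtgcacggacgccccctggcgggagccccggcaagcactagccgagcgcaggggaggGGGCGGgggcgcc
*Sv2a* (chr3:96180977-96181150, plus strand): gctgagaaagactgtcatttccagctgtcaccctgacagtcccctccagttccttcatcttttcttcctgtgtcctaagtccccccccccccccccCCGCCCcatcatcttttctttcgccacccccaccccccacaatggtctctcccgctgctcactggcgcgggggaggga
*Sv2c* (chr13:96132578-96132827, minus strand): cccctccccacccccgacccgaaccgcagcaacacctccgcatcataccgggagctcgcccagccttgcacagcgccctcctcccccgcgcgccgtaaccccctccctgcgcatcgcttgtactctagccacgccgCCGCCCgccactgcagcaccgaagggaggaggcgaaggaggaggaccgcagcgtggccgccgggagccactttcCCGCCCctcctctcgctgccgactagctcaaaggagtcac
The *Syn1* promoter holds, in this order, TTCAGCACC, TGACGTCA and CCCCAAAC. These letters occur in 0.301%, 1.55% and 1.58% of all 32851 promoter windows. Among the lower genes *Syngr1* holds 1 GC box, *Sv2a* 1, *Sv2c* 2 and *Syp* 2, and among those not called *Syn2* holds 2 and *Synpr* 1 (GGGCGG or its reverse complement CCGCCC, in 32.7% of all windows). CCCCAAAC was also found at *Sv2b*, in 1 of its 4 windows, on the strand opposite the gene. CAGATG was found only in the second window of *Syn2* (14.4% of all windows) and TGANTCA in none of the 13 (6.75% of all windows). A match is a description of the letters and not a site of binding. G and C make up 56.4 to 70.8% of the windows of the lower genes *Syngr1*, *Syp*, *Sv2a* and *Sv2c*, with *Syp* the lowest. They make up 32.8 to 68.0% of those of the genes not called, where the median over all windows is 52.4%. The low end of that range comes from further starts within the genes. In the windows farthest upstream *Syn1*, *Syn2*, *Synpr* and *Sv2b* have 68.0, 61.2, 64.0 and 48.8%.

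Among the synaptogyrins and their relatives, *Syngr3* had the largest difference. *Syngr3* encodes synaptogyrin 3, which binds the dopamine transporter and tau, and lies on chromosome 17 from 24685092 to 24689955 (build mm10). It had 18.1, 14.3, 19.0 and 15.8 CPM in mutants 1 to 4, against 158, 170 and 170 CPM in wild types 1 to 3. The groups were far apart and each was tight. The log2 fold change of *Syngr3* was −3.32 ± 0.12 (SE, 95% confidence interval −3.59 to −3.05), with an edgeR adjusted p = 4.83e-06. It ranks 16 of all 17621 tested genes by fold, counted from the largest decrease, and 2 by p value. The raw counts behind it were 345 to 1130 in nm3888-/- and 4004 to 17442 in wild-type libraries, so depth does not limit this gene.

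*Syngr1* encodes synaptogyrin 1 and lies on chromosome 15 from 80091334 to 80119501. It had 672, 690, 499 and 548 CPM in mutants 1 to 4, against 815, 902 and 842 CPM in wild types 1 to 3. The groups do not overlap, and the mutants of the second series are lower than those of the first. *Syngr1* was lower, at a log2 fold change of −0.48 ± 0.10 (SE), with an edgeR adjusted p = 0.0253. With the replicate number as a block the adjusted p was 0.107, without wild type 2 or 3 it was 0.105 and 0.231, and without mutant 2 or 4 it was 0.0527 and 0.0604.

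*Syp* encodes synaptophysin, one of the most abundant vesicle proteins, and maps to chromosome X, positions 7638471 to 7653256. It had 1732, 1808, 1454 and 1957 CPM in mutants 1 to 4, against 2503, 2550 and 2548 CPM in wild types 1 to 3. The wild-type mice lay close together, and the mutants spread over a wider range below them. *Syp* was lower, at a log2 fold change of −0.54 ± 0.11 (SE), with an edgeR adjusted p = 0.0214. The adjusted p was 0.0550, 0.0877 and 0.141 without wild type 1, 2 and 3, and 0.0601 and 0.0610 without mutant 1 and 2. As *Syp* is X-linked and both second-series mutants are male, the first series, all female, was also fitted alone, and the log2 fold change there was −0.51 (adjusted p = 0.0492 from edgeR). *Synpr* encodes synaptoporin, a synaptophysin relative of mossy fiber terminals, and had 4.35, 4.86, 9.92 and 7.17 CPM in mutants 1 to 4, against 4.47, 3.20 and 3.76 CPM in wild types 1 to 3. Its log2 fold change was 0.66 (SE 0.25, edgeR adjusted p = 0.154), with the groups overlapping and the higher mutants both in the second series.

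**Figure D2:**
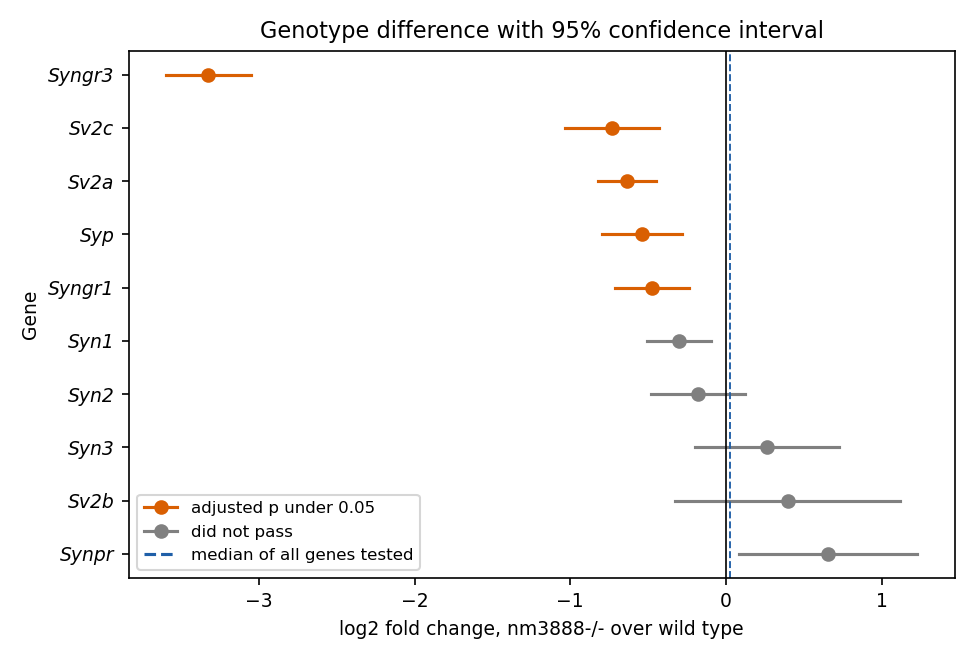
Log2 fold change of nm3888-/- over wild type for each of the 10 genes from the edgeR fit, with 95% confidence intervals, in orange where the adjusted p was under 0.05 and gray where it was not. The interval of *Syngr3* (−3.59 to −3.05) lies far from those of the other 9 genes, and those of *Syn2*, *Syn3* and *Sv2b* include 0.

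Among SV2 genes, *Sv2a* and *Sv2c* were lower and *Sv2b* was not called. *Sv2a* encodes the form found in nearly all synapses and lies on chromosome 3 from 96181151 to 96195521. It had 549, 587, 589 and 568 CPM in mutants 1 to 4, against 886, 879 and 898 CPM in wild types 1 to 3. Both groups were tight and far apart. The mutants lay below the wild types in each library series, the second of which has 1 wild type. The log2 fold change of *Sv2a* was −0.64 ± 0.08 (SE, 95% confidence interval −0.82 to −0.45), with an edgeR adjusted p = 0.0021. *Sv2a* passed the test whichever library was left out (adjusted p up to 0.0264). With sex in place of the library series its edgeR adjusted p was 0.0565. In the second series alone its log2 fold change was −0.63.

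*Sv2c*, the form with the narrowest distribution in the brain, lies on chromosome 13 from 95954594 to 96132577. It had 297, 269, 295 and 340 CPM in mutants 1 to 4, against 564, 526 and 418 CPM in wild types 1 to 3. The lowest wild-type mouse is the one of the second series. *Sv2c* was lower, at a log2 fold change of −0.73 ± 0.13 (SE), with an edgeR adjusted p = 0.0112. The log2 fold change was −0.95 without wild type 3 and −0.39 in the second series alone (adjusted p = 0.350 from edgeR), and the adjusted p was 0.0516 without mutant 2. The unadjusted p of the difference between the series was 0.0295 (adjusted p = 0.814 from edgeR).

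*Sv2b*, a form of forebrain and granule cell synapses, had 29.4, 31.3, 65.7 and 25.4 CPM in mutants 1 to 4, against 32.4, 25.002 and 24.8 CPM in wild types 1 to 3. Mutant 3 alone was high, and the other mutants lay within the wild-type range. The log2 fold change was 0.40 (SE 0.32, edgeR adjusted p = 0.497), and 0.07 without mutant 3. In the same mouse the 12 granule cell markers summed to 1422 CPM, against 751, 770 and 776 CPM in mutants 1, 2 and 4 and 677, 550 and 657 CPM in wild types 1 to 3. All 12 markers had a positive log2 fold change (median 0.51), and none passed the test. *Synpr* and *Syn3* also had their highest level in mutant 3. The part of granule cell RNA in these values was not tested.

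**Figure D3:**
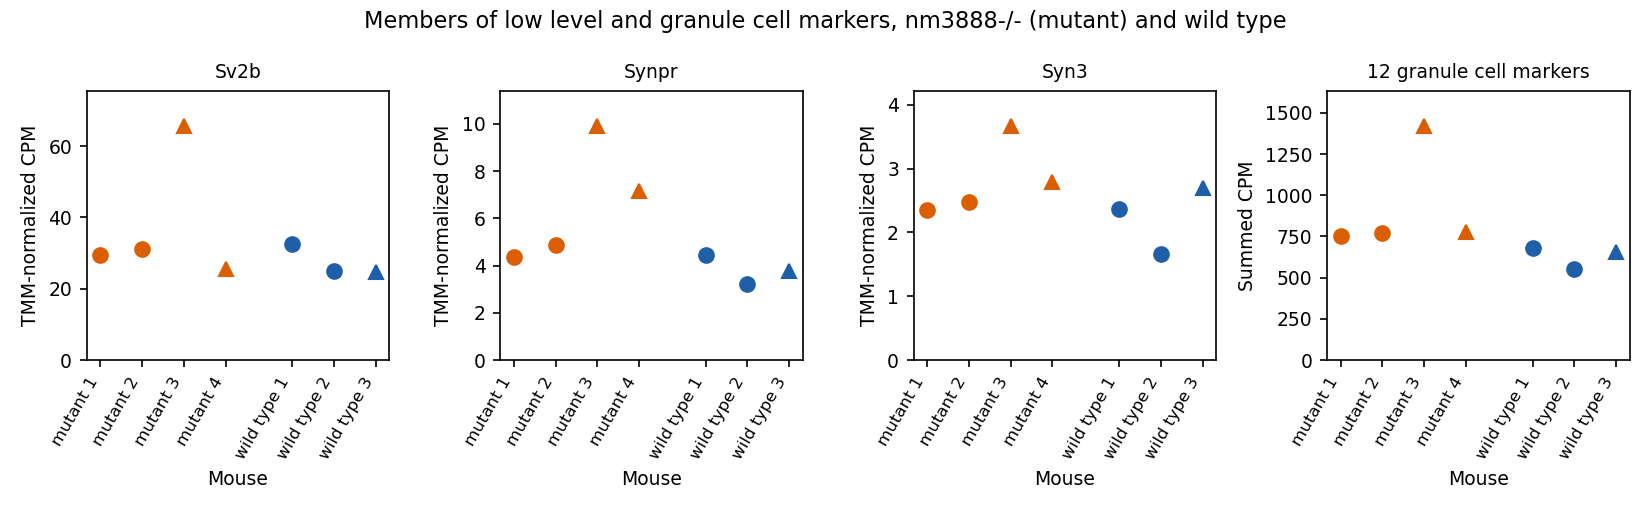
CPM of *Sv2b*, *Synpr* and *Syn3* and the summed CPM of 12 granule cell markers in each mouse, with nm3888-/- in orange, wild type in blue, where circles are mice of the first series and triangles those of the second. Mutant 3 is the highest mouse in all 4 plots, at 65.7 CPM for *Sv2b* and 1422 summed CPM for the markers.

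No synapsin gene passed the test. *Syn1* encodes synapsin 1, the main neuronal synapsin, and maps to chromosome X, positions 20860511 to 20921004. It had 319, 333, 375 and 348 CPM in mutants 1 to 4, against 390, 437 and 426 CPM in wild types 1 to 3. All mutants lie below all wild types, by a small margin. Its log2 fold change was −0.30 (SE 0.09, 95% confidence interval −0.51 to −0.10, edgeR adjusted p = 0.0772), and it did not pass in any alternative setting. In the all-female first series its log2 fold change was −0.34. *Syn2* encodes synapsin 2, on chromosome 6 from 115134902 to 115282006, and had 66.3, 86.8, 105 and 85.4 CPM in mutants 1 to 4, against 93.1, 96.7 and 94.2 CPM in wild types 1 to 3. Mutant 1 was lowest and mutant 3 above all wild types. The log2 fold change of *Syn2* was −0.18, with a 95% confidence interval from −0.48 to 0.12. *Syn3* encodes synapsin 3, a form of developing neurons, and had 2.36, 2.47, 3.67 and 2.79 CPM in mutants 1 to 4, against 2.37, 1.66 and 2.70 CPM in wild types 1 to 3. Its 95% confidence interval was −0.20 to 0.72 around a log2 fold change of 0.26, at 42 to 277 counts per library.

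Each synapsin gene holds a gene of the TIMP family of metalloproteinase inhibitors within its span on the other strand. The reads were counted by strand, and exons of *Timp4* and *Timp3* overlap exons of *Syn2* and *Syn3* from the other strand. *Timp4*, within *Syn2*, had 10.2, 7.30, 19.0 and 15.05 CPM in mutants 1 to 4, against 5.29, 5.30 and 7.10 CPM in wild types 1 to 3. *Timp4* rose, with a log2 fold change of 0.95 ± 0.19 (SE) and an edgeR adjusted p = 0.0164, where *Syn2* had a log2 fold change of −0.18. *Timp3*, within *Syn3*, did not pass, at a log2 fold change of 0.83 (SE 0.42, edgeR adjusted p = 0.276). *Timp1*, within *Syn1*, reached at most 0.118 CPM and was not tested. *Araf*, at up to 262 CPM, overlaps exons of *Syn1* from the other strand.

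The make-up of each family was compared as shares of counts per kb, which do not depend on the scaling of libraries. *Syngr3* made up 1.81, 1.38, 2.34 and 1.53% of the synaptogyrins and physins in mutants 1 to 4, against 10.5, 10.8 and 11% in wild types 1 to 3. This is a difference of −9.01 percentage points (two-sided exact permutation p = 0.0571, the smallest that 35 splits of 7 libraries allow, and 0.114 adjusted over the 10 shares). The difference was −9.06 points in the first series and −9.07 points in the second. *Syp* took 71.3 ± 2.87% (SD, n = 4) of this family in nm3888-/- and 65.3 ± 0.838% (SD, n = 3) in wild-type Purkinje cells, although its CPM was lower in nm3888-/-. The difference in the share of *Syp* was 5.95 points, and 2.25 points with no division by gene length. *Syn1* took 89.4 ± 1.17% of the synapsins in nm3888-/- and 90.3 ± 0.404% in wild-type cells. *Sv2a* took 77.7 ± 1.68% of the SV2 family in nm3888-/- and 77.7 ± 2.77% in wild-type cells, and *Sv2b* 2.82 ± 1.30% and 1.32 ± 0.178%. The share of *Sv2b* was highest in mutant 3, at 4.74%. No share could pass the adjusted threshold in a design of this size.

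**Figure D4:**
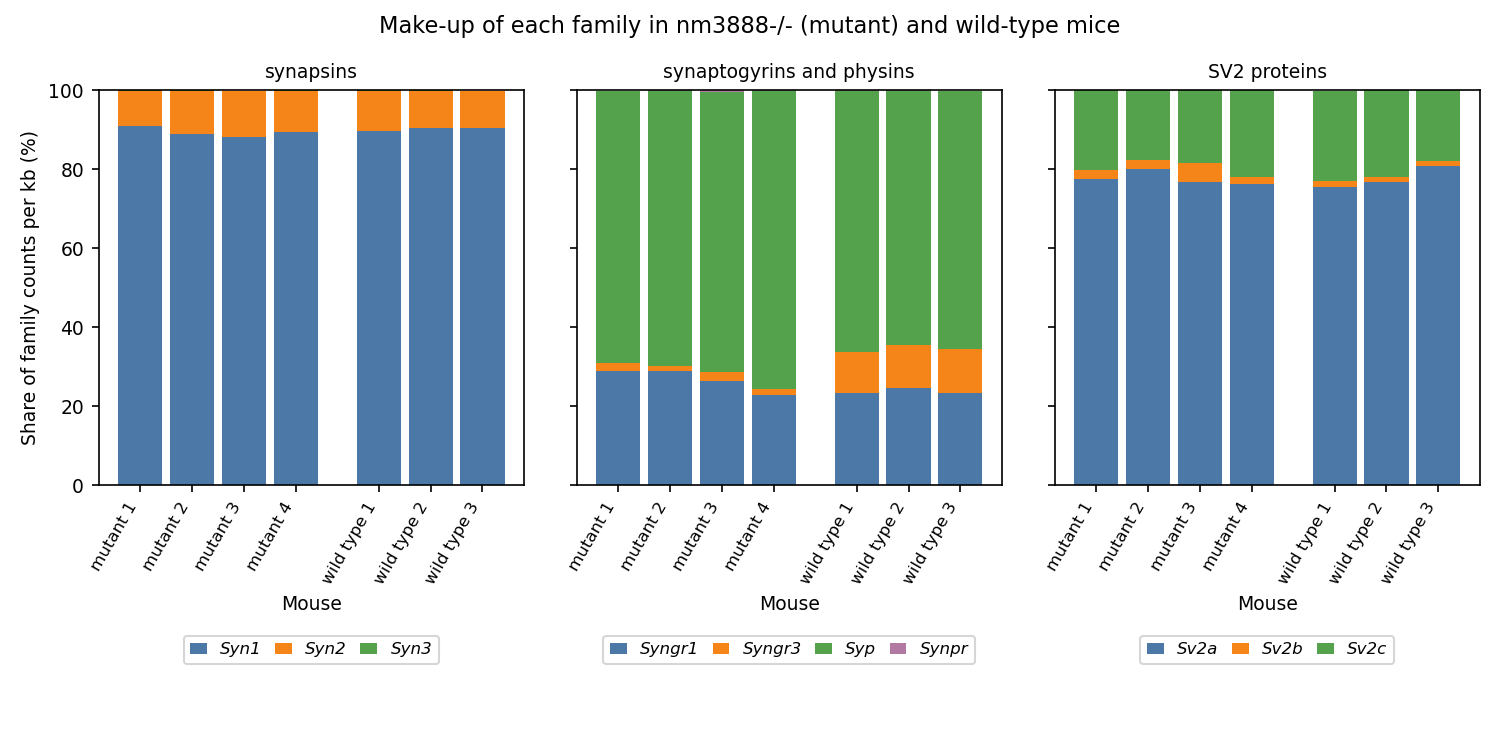
Share of each gene in the summed counts per kb of its family (percent) in each mouse, with the 4 nm3888-/- mice (mutant) left of the 3 wild-type mice. The band of *Syngr3* is 1.38 to 2.34% in the mutants and 10.5 to 11% in the wild types, while *Syn1* and *Sv2a* hold most of their families in both.

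Across the library series no genotype difference of the 10 genes passed an adjusted p of 0.05 in the interaction term of edgeR, where 0.0795% of all genes did. At an unadjusted p under 0.05 there were 2, *Sv2c* and *Synpr*, and DESeq2 called none. Each of *Syngr3*, *Syngr1*, *Syp*, *Sv2a*, *Sv2c* and *Syn1* was lower in each mutant than the mean of the wild types of its series. For mutants 3 and 4 that mean is wild type 3 alone. The result follows from all mutants lying below all wild types in these 6 genes, as in 8.92% of all genes. For *Syngr3* the log2 differences from that mean were −3.18, −3.52, −3.16 and −3.43 in mutants 1 to 4. For *Sv2a* they were −0.68, −0.59, −0.61 and −0.66.

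To place the 10 genes among other presynaptic genes, 46 more vesicle proteins were listed, of which 39 were tested. Of these, 10 were lower, 25.6% of those tested, where 5.95% of all genes tested were lower. None was higher, where 2.58% of all genes were, and the median log2 fold change was −0.05. At an unadjusted p under 0.05 there were 5 higher, and DESeq2 called 2. *Slc32a1*, the vesicular GABA transporter that loads Purkinje cell vesicles, had 292 ± 41.8 CPM in nm3888-/- (SD, n = 4) and 715 ± 59.0 CPM in wild-type Purkinje cells (SD, n = 3). It fell by 1.25 on the log2 scale (SE 0.10). *Rab3c*, a vesicle GTPase, fell by 0.99 (SE 0.11), *Sncb*, beta-synuclein, by 0.85 (SE 0.10) and *Syt12*, a synaptotagmin, by 0.56 (SE 0.09). With the replicate number as a block 5 of the list were lower, as without wild type 1, 2 or 3, and 6 were lower without mutant 1 or mutant 2. Of the 22 active zone genes, which build the release site, 3 were lower (13.6%, against 5.95% of all genes tested). None was higher, where 2.58% of all genes were, and the median was 0.08. Among the lower genes were *Lin7b* (log2 fold change −1.11) and *Apba1* (−0.69), whose proteins are scaffold partners of Cask. *Lin7b* was low, and its groups overlapped, at 1.68 to 4.74 CPM in nm3888-/- and 3.16 to 9.24 CPM in wild type. The related *Lin7a* (0.97) and *Apba2* (0.44), and *Cask* itself (0.15), had positive log2 fold changes and did not pass the test. Of the 22, 5 were higher at an unadjusted p under 0.05, and DESeq2 called none higher. Without wild type 3 only 1 active zone gene was lower, and with the replicate block 1 active zone gene, *Rims3*, was higher.

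Kinases and phosphatases that act on synapsins form a list of 19 genes, all tested. In it 4 were lower (21.1%, against 5.95% of all genes tested). None was higher, where 2.58% of all genes were, and the median was −0.06. At an unadjusted p under 0.05 there was 1 higher, and DESeq2 called none. *Camk2a*, the alpha subunit of CaM kinase II, had 386, 237, 220 and 158 CPM in mutants 1 to 4, against 731, 819 and 711 CPM in wild types 1 to 3. Its log2 fold change was −1.56 ± 0.20 (SE), with an edgeR adjusted p = 0.0022. *Cdk5r1*, the activator p35 of Cdk5, fell by 0.88 (SE 0.08), *Cdk5* by 0.47 (SE 0.11) and *Camk1d* by 0.47 (SE 0.12). *Cdk5* was 93.5 and 115 CPM in the mutants of the second series, against 152 CPM in its wild type, and 38.5 and 32.8 CPM in those of the first, against 46.9 and 48.0 CPM. With the replicate block, and without wild type 1, 2 or 3 or mutant 2, 2 of the 19 were lower.

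**Figure D5:**
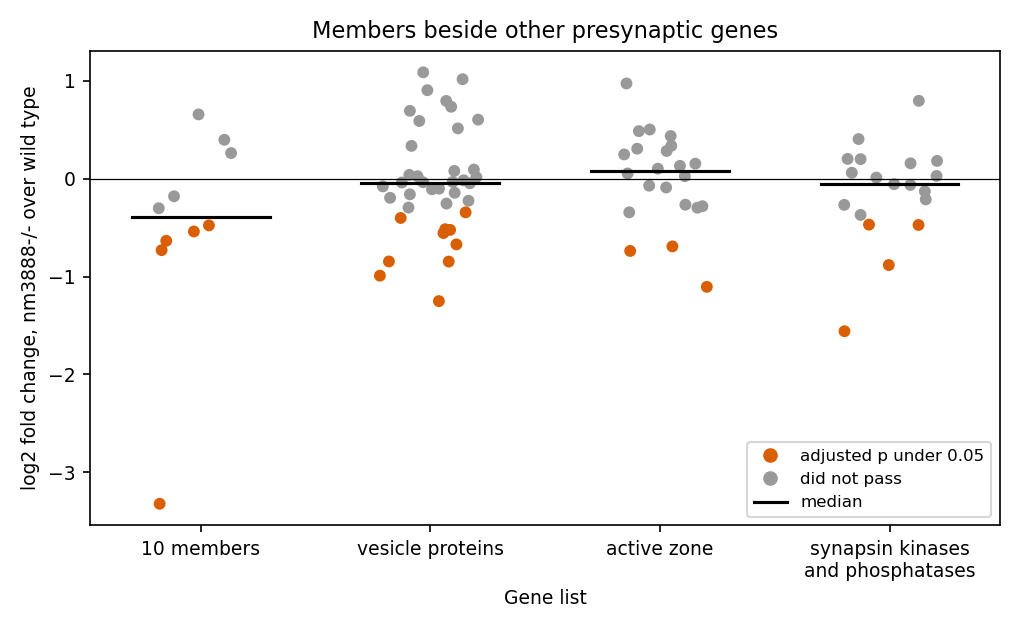
Log2 fold change of nm3888-/- over wild type for the 10 genes, 39 other vesicle proteins, 22 active zone genes and 19 synapsin kinases and phosphatases, 1 point per tested gene, in orange where the adjusted p was under 0.05, with the median as a bar. The median is −0.39 for the 10 genes and −0.05, 0.08 and −0.06 for the other lists, and every orange point lies below 0.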

How the data were processed

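RNA bound to HA-tagged ribosomes of Purkinje cells was measured in 4 nm3888-/- and 3 wild-type mice, grouped by the labels. The authors removed duplicates and trimmed reads with fastp, aligned them to mm10 and counted them per gene by strand on GENCODE M25 (the file headers give featureCounts 2.0.1), and the deposited values are raw counts. Per the file headers, the first library series was read from a folder named Bowtie2 and the second from one named STAR, where the methods give Bowtie2 alone. Symbols matched 55141 of 55401 genes (99.53%). The gene length, deposited as summed exon bases, gave CPM per kb.

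Genes passing filterByExpr were tested with edgeR's quasi-likelihood test (edgeR 4.0.16, limma 3.58.1, R 4.3.3), TMM normalization and the library series as a term, and an adjusted p under 0.05 was called. CPM used the TMM-scaled library size, and SD is over mice. The study used DESeq2 with a batch term. DESeq2 1.42.0 with the series was an alternative, as were RLE size factors, no filter, no series term, sex and a replicate block. Thinned counts, each series alone and each library left out were further ones. In the replicate block mutant 4 has no wild type of its number, so it adds nothing to the genotype difference. The fit was tested on simulated counts. The promoters, of RefSeq, share the build of the files.

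Samples with the same number deviated together from their group means (r = 0.914, 0.946 and 0.960 for numbers 1, 2 and 3). Mutant 1 correlated best with wild type 2, and wild type 1 with mutant 2, so number 1 was not its own best match. The pairing comes from the same-number correlations alone, and the numbers nest within the series. The members and lists were chosen with earlier results of these data known. Named were all 10 members, the TIMP genes within synapsin genes, *Rreb1* and, of each other list, up to 4 called genes per direction with the smallest adjusted p. *Rims3*, *Lin7a*, *Apba2*, *Cask*, *Calb2* and the glial markers were named after their values were seen. The values of 1 active zone gene are not reported here.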

Additional observations from a re-analysis of the deposited data

Results flagged for a closer look

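*Sv2b* had 65.7 CPM in mutant 3, set apart from the other nm3888-/- mice at 25.4 to 31.3 CPM by 0.856 of the range of the group, above the critical value of Dixon's test for 4 samples. Chance gives such a gap in about 1 in 20 groups, and 10 genes were looked at.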

How the results depend on the processing

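*Syngr3* was lower and passed the test in all 16 alternatives (log2 fold change −3.40 to −3.24). *Sv2a* passed in 14, *Sv2c* in 12, *Syngr1* and *Syp* in 8 each, all with the same direction throughout. RLE size factors, DESeq2, no filter and thinned counts called 5 of the 10 genes lower, as did the reported fit. With no series term 2 were lower, with sex in its place 1, and in the second series alone, whose only wild type is assumed to vary like the mutants, 2 were lower and 1 (*Synpr*) higher. Leaving out 1 library gave 2 to 5 lower. With the replicate block, to which mutant 4 adds nothing, 4 were lower, *Syngr1* being lost, and no other call among the 10 changed.

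Of the vesicle list, 1 was lower with no series term and 1 with sex, 5 with the replicate block, 5 in the first and 4 in the second series, and 5 to 10 with a library left out. Higher were 2 with DESeq2, 3 with no filter, 1 in the first and 1 in the second series, and 0 to 1 with a library left out. Of the active zone list, edgeR called 0 lower with no series term and 0 with sex (3 at an unadjusted p under 0.05 in each, where DESeq2 with the series called 3), 1 in the first series and 1 to 3 with a library left out. It called 1 higher with the block, 1 in the second series and 0 to 1 with a library left out. Of the synapsin kinases and phosphatases, edgeR called 1 lower with no series term and 0 with sex (3 at an unadjusted p under 0.05, where DESeq2 with the series called 4).

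*Syn2* reversed to 0.0196 in the second series. The share of *Sv2a*, near 0 points, was −4.22 points in the second series and −1.09 to 1.57 with a library left out, and that of *Sv2c* 2.14 in the second series. The share of *Syngr3* differed by −9.20 to −8.88 points with a library left out, and by −3.94 points with no division by gene length. The cause of these changes was not tested. *Syn3* and *Synpr*, at 42 to 589 counts per library, have the least depth. Over all genes, 1049 were lower and 455 higher in the reported fit, against 1257 and 791 with DESeq2, 1329 and 731 with no filter, 251 and 58 with no series term, 85 and 17 with sex, 571 and 241 with the replicate block, 488 and 191 in the first series and 493 and 567 in the second. Leaving out 1 library gave 426 to 991 lower and 173 to 434 higher.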
